A study of Mus musculus with 9 samples.

Results

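The immunity-related GTPases of the IRG family were followed across skeletal progenitors of mouse bone marrow. The 8 genes Irgm1, Irgm2, Igtp, Iigp1, Tgtp1, Tgtp2, Ifi47 and Gvin1 were taken by name from the 24186 genes of the deposited count table. Each name had 1 identifier, and all 8 were among the 15098 genes left for testing by a filter on low counts, which a gene can pass through 1 group alone. Gvin1 codes for a giant interferon-inducible GTPase and is a relative of the IRG proteins rather than one of them.

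Poly(A) RNA was sequenced from stromal cells of the femora and tibiae of adult C57Bl/6 mice transgenic for irtTA-GBD*-TAg. Dexamethasone and doxycycline switch on large T antigen from this transgene, so that the cells grew as conditionally immortalised, cloned lines, and both drugs were withdrawn for 3 days before RNA was taken in all groups. There were 3 libraries of adipogenic progenitors exposed for 3 days to interferon-γ (IFNγ) at 10 ng/ml, 3 of osteogenic progenitors without IFNγ and 3 of untreated adipogenic progenitors, numbered 4, 5 and 6 in each group. Which clone, animal or culture a number stands for is not given in the sources used here, so p values measure the spread between these libraries, which may be technical.

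Library totals ran from 27440089 to 39251602 counts, and 3 counts in a library, the limit that a count of 0 allows, came to 0.0748 to 0.113 CPM, the counts per 1e6 of scaled library size. Col1a1, a collagen gene of stromal cells, averaged 2261 CPM in IFNγ-treated, 34370 in osteogenic and 6896 in untreated adipogenic libraries, while the stromal marker Thy1 was at or near 0 in all of them. The mature fat cell genes Adipoq and Plin1 were near 0 in every group, while the 6 fat markers summed to 87.0 to 333 CPM in IFNγ-treated, 37.1 to 77.9 in osteogenic and 74.8 to 646 in untreated adipogenic libraries. Among them Lpl, a lipase made early in fat cell formation, had 49.96, 11.53 and 111.5 CPM in IFNγ-treated, 3.565, 3.535 and 2.145 CPM in osteogenic and 127, 12.32 and 290.6 CPM in untreated adipogenic libraries, and fell in osteogenic against untreated adipogenic ones (log2 fold change -5.54 ± 1.24, adjusted p = 0.0435 by edgeR). In untreated libraries Lpl was lowest in library 5 and highest in library 6, as were 5 of the 8 IRG genes, and its part in their differences was not tested. The gene Sp7, which marks bone-forming cells, averaged 0.134 CPM in IFNγ-treated, 100.2 in osteogenic and 0.182 in untreated adipogenic libraries. The other bone markers were less distinct. All 8 together summed to 305 to 474 CPM in IFNγ-treated, 640 to 2230 in osteogenic and 280 to 1430 in untreated adipogenic libraries. By edgeR 4 of the 8 were higher in osteogenic than in untreated adipogenic libraries (adjusted p under 0.05), against 1.98% of all genes tested, and none was lower. Markers of T and NK cells, the cells that make IFNγ in the body, summed to 0 to 0.0282 CPM in IFNγ-treated libraries, with 3 of 4 genes at 0, and to 0 in the osteogenic and the untreated adipogenic ones. The 8 macrophage and blood markers summed to 12.5 to 20.1 CPM in IFNγ-treated, 9.73 to 12.3 in osteogenic and 12.7 to 30.5 in untreated adipogenic libraries, most of it Cd68 and Cd14, while the pan-leukocyte gene Ptprc stayed under 0.05 CPM in each group mean. Endothelial markers summed to 22.2 to 54.4 CPM, 1.67 to 2.63 CPM and 9.19 to 17.8 CPM in the same order of groups, nearly all of it Kdr, with Pecam1 and Cdh5 near 0 and Emcn at 0. This sum was ordered like the IRG genes, and its part in their differences was not tested. In bulk libraries fewer cells that express a gene and less RNA of it per cell cannot be told apart.

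IRG proteins are interferon-induced GTPases that assemble on the membranes of vacuoles that hold intracellular parasites and bacteria and break them open. The effectors, of the GKS type with a lysine in the nucleotide-binding loop, include Iigp1 (Irga6), Tgtp1 and Tgtp2 (Irgb6) and Ifi47 (Irgd). The regulators Irgm1, Irgm2 and Igtp (Irgm3), of the GMS type with a methionine in its place, sit on the cell's own membranes and hold the effectors in the inactive, GDP-bound state. GAS elements, and ISRE elements bound by IRF proteins, are the textbook promoter sites through which IFNγ switches such genes on.

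Promoter windows of 300 bases, 250 before to 50 after the gene start, were taken from RefSeq (GRCm38.p6) for the 6 members with an entry, Irgm1, Irgm2, Igtp, Tgtp1, Tgtp2 and Ifi47, and were searched on both strands for ISRE-like letters, GAAA and GAAA again after any 2 bases, and for the GAS-like letters TTCNNNGAA. The ISRE-like letters were in 5 of the 6 windows and in 3.44% of all 32851 windows of the table. The GAS-like letters were in 4 of the 6 and in 8.3% of all windows. The windows of the 2 regulators with the larger IFNγ response and of both Tgtp genes are shown with that of Irgm1, which differs from them, and the capitals mark the matches. They lie at chr11:48871371-48871670 (Irgm1, minus strand), chr11:58214727-58215026 (Irgm2, plus strand), chr11:58199306-58199605 (Igtp, plus strand), chr11:48992197-48992496 (Tgtp1, minus strand) and chr11:49064163-49064462 (Tgtp2, minus strand).
Irgm1: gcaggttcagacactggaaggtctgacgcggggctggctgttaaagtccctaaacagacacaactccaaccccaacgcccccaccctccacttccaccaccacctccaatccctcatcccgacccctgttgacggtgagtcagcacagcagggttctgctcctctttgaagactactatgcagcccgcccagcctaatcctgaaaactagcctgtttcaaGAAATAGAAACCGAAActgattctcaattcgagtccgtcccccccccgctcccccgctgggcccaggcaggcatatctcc
Irgm2: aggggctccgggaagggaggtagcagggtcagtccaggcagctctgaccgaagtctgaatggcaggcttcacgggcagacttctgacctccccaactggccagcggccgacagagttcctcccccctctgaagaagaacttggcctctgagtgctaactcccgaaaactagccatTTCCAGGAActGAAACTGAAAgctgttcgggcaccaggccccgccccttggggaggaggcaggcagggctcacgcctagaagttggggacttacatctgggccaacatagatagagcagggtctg
Igtp: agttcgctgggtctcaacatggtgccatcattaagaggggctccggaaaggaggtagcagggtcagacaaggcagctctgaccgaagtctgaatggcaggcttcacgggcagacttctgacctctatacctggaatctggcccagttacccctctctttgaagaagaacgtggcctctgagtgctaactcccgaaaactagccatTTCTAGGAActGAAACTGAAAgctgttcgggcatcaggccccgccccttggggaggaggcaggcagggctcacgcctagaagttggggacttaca
Tgtp1: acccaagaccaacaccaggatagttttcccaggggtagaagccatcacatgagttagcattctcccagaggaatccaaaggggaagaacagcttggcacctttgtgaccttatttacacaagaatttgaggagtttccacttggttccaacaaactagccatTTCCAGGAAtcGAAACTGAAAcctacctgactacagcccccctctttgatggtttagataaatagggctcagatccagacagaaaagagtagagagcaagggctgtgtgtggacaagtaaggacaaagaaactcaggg
Tgtp2: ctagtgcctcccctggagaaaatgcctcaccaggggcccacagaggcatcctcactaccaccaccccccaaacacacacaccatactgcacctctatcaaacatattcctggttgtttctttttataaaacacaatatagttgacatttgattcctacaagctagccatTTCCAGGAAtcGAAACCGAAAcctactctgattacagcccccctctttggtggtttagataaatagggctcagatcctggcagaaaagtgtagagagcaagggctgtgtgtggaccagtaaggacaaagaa

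In Irgm2, Igtp, Tgtp1 and Tgtp2 a GAS-like match was followed by an ISRE-like match with 2 bases between them. The GAS-like match began 75 bases before the start in Irgm2, 45 in Igtp, 88 in Tgtp1 and 81 in Tgtp2. This joint arrangement, searched on either strand, was chosen after these windows were seen. It was in 5 of the 32851 windows (0.0152%), those 4 and that of Gm12185, while both motifs in any arrangement were in 149 windows (0.454%). The windows of Irgm2 and Igtp were identical at 92.1% of 265 aligned bases and those of Tgtp1 and Tgtp2 at 80.5% of 272, so the 4 are not independent cases. Irgm1 had 2 overlapping ISRE-like matches, starting 30 and 24 bases before its start, and no GAS-like match, and the window of Ifi47 held neither. A match is a description of the letters and no evidence of binding, and no match says only that these letters are not in this window.

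**Figure D1:**
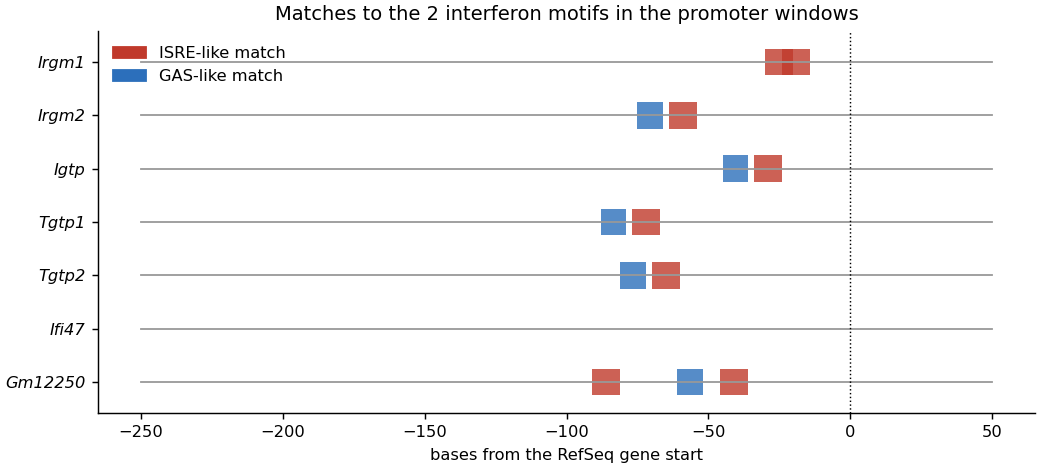
Positions of ISRE-like (red) and GAS-like (blue) matches in the promoter windows of 6 members and of the neighbouring gene Gm12250, drawn along bases from the RefSeq gene start (dotted line). A GAS-like match stands 2 bases before an ISRE-like one in Irgm2, Igtp, Tgtp1 and Tgtp2, whereas Irgm1 has overlapping ISRE-like matches alone and Ifi47 has none. Gm12250 has a GAS-like match, starting 61 bases before the start, between ISRE-like ones starting at 91 and 46.

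All 8 members were higher in each IFNγ-treated library than in any untreated adipogenic library, against 10.2% of all genes tested. With edgeR's quasi-likelihood test and Benjamini-Hochberg adjustment over all 15098 genes, 5 of 8 rose (adjusted p under 0.05), against 2.01% of all genes tested: Irgm2, Igtp, Iigp1, Tgtp1 and Ifi47. The numbers 4, 5 and 6 were taken to pair the treated and untreated libraries, a reading from correlated deviations in these same data and not from the labels. With the number as a block all 8 rose, against 8.61% of the genes tested in that fit. DESeq2 also called all 8 as higher, against 4.97% of genes. The members' log2 fold changes ran from 1.43 to 5.71 with a median of 3.45, against a median of -0.02 over all genes tested. Values are given in CPM in the order of libraries 4, 5 and 6, means carry the SD over 3 libraries, each log2 fold change stands with its SE, and p values are adjusted ones of the same test unless another is named.

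**Figure D2:**
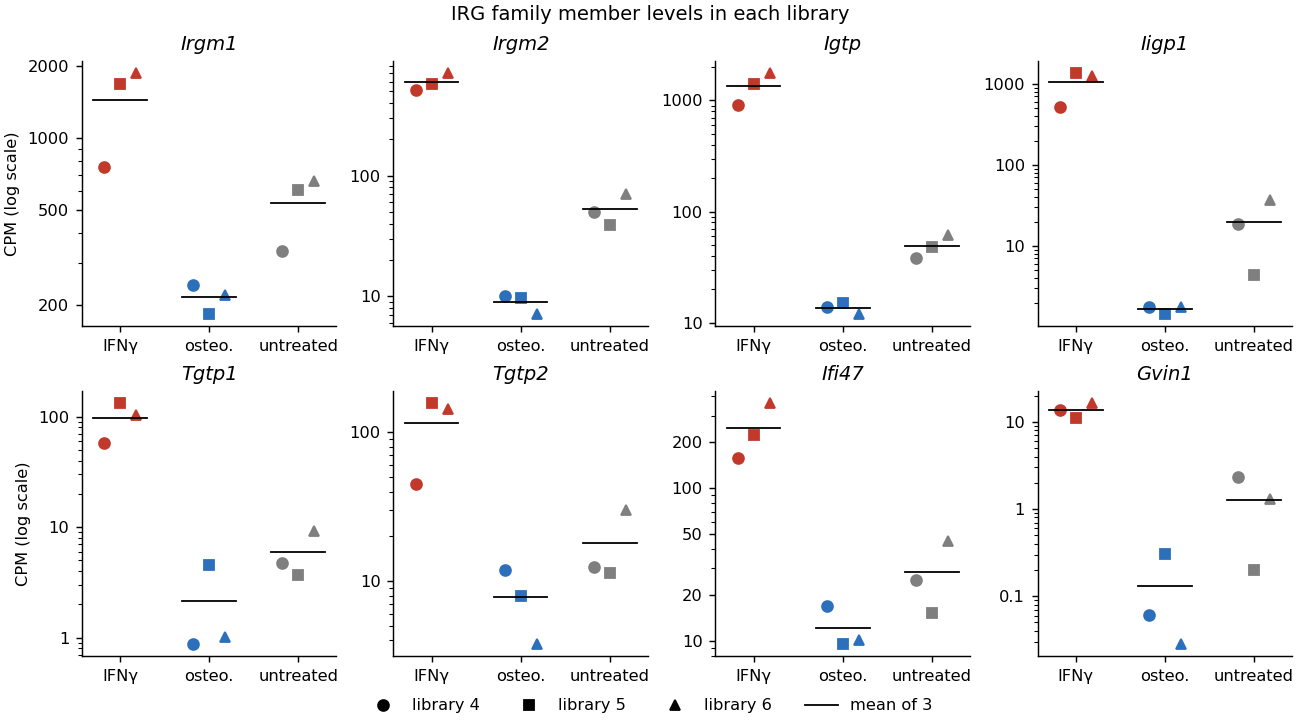
CPM (log axis) of each member in the 9 libraries, in IFNγ-treated adipogenic, osteogenic and untreated adipogenic progenitors, with the mean of 3 as a line and the library number as the symbol. The 3 treated libraries stand above all others for each of the 8 genes, and the osteogenic libraries stand below the untreated adipogenic ones without overlap for Irgm1, Irgm2, Igtp and Iigp1.

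Among the regulators, Igtp (ENSMUSG00000078853), a protein of the endoplasmic reticulum and lipid droplets, had 911.6, 1415 and 1761 CPM in IFNγ-treated libraries, 13.87, 14.97 and 11.94 CPM in osteogenic libraries and 38.43, 48.08 and 61.89 CPM in untreated adipogenic libraries. The 3 groups did not overlap, and the treated mean of 1363 ± 427.2 CPM stood against 49.46 ± 11.79 CPM without IFNγ. With IFNγ the log2 fold change was 4.78 ± 0.31 (adjusted p = 0.000198). Irgm2 (ENSMUSG00000069874), a regulator found at the Golgi, had 514.7, 567.6 and 704.1 CPM in treated, 10.03, 9.626 and 7.084 CPM in osteogenic and 50.3, 38.86 and 70.57 CPM in untreated adipogenic libraries. The groups again kept apart, with the narrowest spread among treated libraries of any regulator, and the log2 fold change with IFNγ was 3.48 ± 0.27 (adjusted p = 0.000469).

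Irgm1 (ENSMUSG00000046879), the regulator of the Golgi, lysosomes and mitochondria whose loss in mice impairs blood stem cells, had 754.1, 1688 and 1866 CPM in IFNγ-treated, 242.7, 182.3 and 219.5 CPM in osteogenic and 335.4, 606.9 and 657.7 CPM in untreated adipogenic libraries. It had the highest level per kilobase of the family in both groups without IFNγ, and library 4 was the lowest of both adipogenic groups. The treated mean was 1436 ± 597.4 CPM against 533.3 ± 173.3 CPM, a log2 fold change of 1.43 ± 0.37 that missed the threshold (adjusted p = 0.116) and was the smallest of the 8. The ratios of treated to untreated CPM were close together at 2.25, 2.78 and 2.84 in the 3 number pairs, and blocking by number gave a log2 fold change of 1.37 ± 0.13 (adjusted p = 0.0058). Without treated library 4 it also passed (adjusted p = 0.0281).

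Of the effectors, Iigp1 (ENSMUSG00000054072), which coats the vacuole of Toxoplasma gondii, had 522.4, 1358 and 1259 CPM in IFNγ-treated, 1.752, 1.429 and 1.778 CPM in osteogenic and 18.89, 4.381 and 36.64 CPM in untreated adipogenic libraries. No groups overlapped. The log2 fold change with IFNγ was 5.71 ± 0.79 (adjusted p = 0.00803), the largest of the 8, and 6.50 without untreated library 6. Fitted to the 6 adipogenic libraries alone the adjusted p was 0.054. Ifi47 (ENSMUSG00000078920) had 157.5, 222.9 and 363.2 CPM in treated, 16.92, 9.589 and 10.13 CPM in osteogenic and 25.14, 15.31 and 45.25 CPM in untreated adipogenic libraries, so that osteogenic library 4 lay above untreated library 5. It rose with a log2 fold change of 3.12 ± 0.48 (adjusted p = 0.0133), but the adjusted p was 0.0722 without untreated library 4 and 0.0586 in the 6 libraries alone.

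Tgtp1 (ENSMUSG00000078922) and Tgtp2 (ENSMUSG00000078921) code for near-identical GTPases, and 77.2% of the 75-base stretches of the coding transcripts of Tgtp1 and 85.2% of those of Tgtp2 occur in another gene (GENCODE M21), nearly all in each other. How reads of 75 bases were divided between them is not given in the sources used here, so the level of each alone is uncertain. Tgtp1 had 57.73, 133.1 and 102.5 CPM in IFNγ-treated, 0.8761, 4.588 and 1.016 CPM in osteogenic and 4.786, 3.727 and 9.229 CPM in untreated adipogenic libraries. Treated libraries stood clear of the rest, while osteogenic library 5 lay inside the untreated range. Its log2 fold change with IFNγ was 4.04 ± 0.71 (adjusted p = 0.0258), and it passed no longer without any 1 of untreated libraries 4 (0.118), 5 (0.103) and 6 (0.0563) or of treated libraries 5 (0.0646) and 6 (0.0779). Tgtp2 had 45.14, 158.2 and 144.7 CPM in treated, 11.93, 7.934 and 3.782 CPM in osteogenic and 12.53, 11.29 and 30.13 CPM in untreated adipogenic libraries, and the groups without IFNγ overlapped. Its log2 fold change of 2.69 ± 0.63 missed the threshold (adjusted p = 0.0833) and passed with the replicate block (2.61 ± 0.41, adjusted p = 0.0187) or without treated library 4 (0.0446). With the counts of both genes added, the log2 fold change was 3.16 ± 0.58 (adjusted p = 0.0308).

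Gvin1 (ENSMUSG00000045868) had 13.53, 11.22 and 16.55 CPM in IFNγ-treated libraries and 2.336, 0.1991 and 1.297 CPM in untreated adipogenic libraries, where it rested on 83, 7 and 52 counts. In osteogenic libraries it had 2, 8 and 1 counts, or 0.0604, 0.301 and 0.0282 CPM. The treated libraries were alike and above all others, though Gvin1 had the lowest level of the 8 members there. The untreated libraries differed 11.7-fold among themselves. The log2 fold change with IFNγ was 3.43 ± 0.87 and missed the threshold (adjusted p = 0.106), and with the block by number it passed (3.65 ± 0.56, adjusted p = 0.018), as it did with DESeq2 (adjusted p = 0.0011) and limma (adjusted p = 0.0191). Gvin1 shares 98.3% of its 75-base stretches with other genes, mostly its neighbour Gm4070. Gm4070 had 15.89, 13.73 and 21.88 CPM in treated, 0, 0.188 and 0.0847 CPM in osteogenic and 0.957, 0.228 and 1.946 CPM in untreated adipogenic libraries, and the counts of both together gave 3.73 ± 0.81 (adjusted p = 0.0637).

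**Figure D3:**
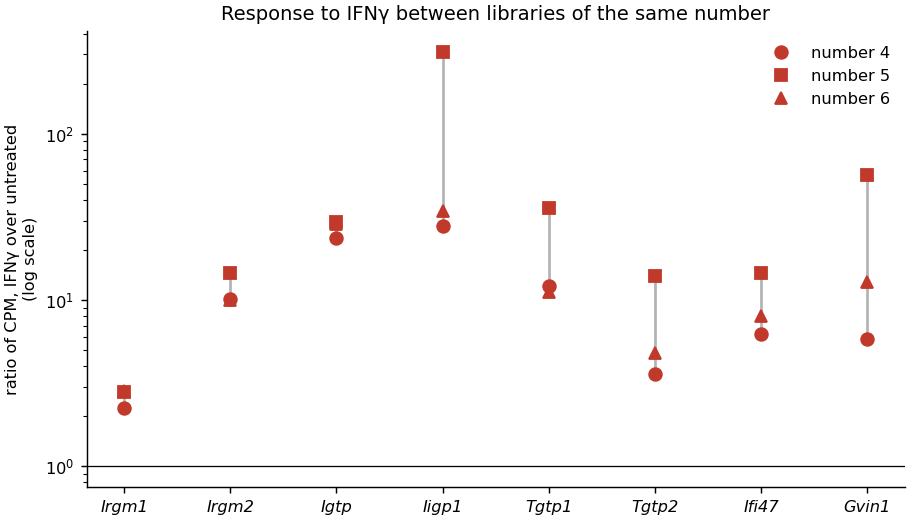
Ratio of CPM in the IFNγ-treated library to CPM in the untreated adipogenic library of the same number (log axis), for each member and for numbers 4, 5 and 6. All 24 ratios exceed 1, those of Irgm1 and Igtp are close together, and number 5 gives the highest ratio of Iigp1 (310) and Gvin1 (56.3).

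Within pairs the members differed in how even the response was. Igtp was 23.7, 29.4 and 28.5 times higher in the treated library of pairs 4, 5 and 6, and Irgm2 was 10.2, 14.6 and 9.98 times higher. The ratios of Iigp1 were 27.7, 310 and 34.4 and those of Gvin1 were 5.79, 56.3 and 12.8. Number 5 gave the highest ratio for 7 of the 8 members, Irgm1 being the exception. Untreated library 5 was the lowest of its group for 6 of 8 members, and untreated library 6 the highest for 7. Among treated libraries, number 4 was the lowest for 7 of 8 and number 6 the highest for 5. The highest treated library exceeded the lowest by 1.37 to 3.5 times and the highest untreated library the lowest by 1.61 to 11.7 times.

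In osteogenic against untreated adipogenic progenitors, members were lower or did not pass the test. Irgm2, Igtp and Iigp1 fell (3 of 8, against 3.19% of all genes tested), none rose (against 1.98%), and all 8 fold changes were negative, from -3.59 to -1.19 on the log2 scale with a median of -1.67. DESeq2 called 5 as lower, against 8.49% of genes. Irgm1, Irgm2, Igtp and Iigp1 did not overlap between the groups, 4 of 8 against 15.9% of all genes tested. This comparison and the one with IFNγ share the untreated libraries, so a high or low untreated library moves both.

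Irgm2 averaged 8.913 ± 1.597 CPM in osteogenic and 53.24 ± 16.06 CPM in untreated adipogenic libraries, a log2 fold change of -2.58 ± 0.26 (adjusted p = 0.00271). Igtp averaged 13.59 ± 1.533 CPM against 49.46 ± 11.79 CPM and fell by 1.86 ± 0.28 on the log2 scale (adjusted p = 0.0123), but missed the threshold without osteogenic library 4 (0.061) or 6 (0.0573). Iigp1 averaged 1.653 ± 0.1945 CPM against 19.97 ± 16.16 CPM and fell by 3.59 ± 0.74 (adjusted p = 0.0347). That call was lost without any 1 of untreated libraries 4 (0.0693) and 6 (0.0866), treated libraries 5 (0.0515) and 6 (0.0567), and osteogenic libraries 4 (0.121), 5 (0.125) and 6 (0.116), with limma (0.129) and in the 6 libraries alone (0.0564). The log2 fold change was -2.81 without untreated library 6.

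Irgm1 averaged 214.9 ± 30.49 CPM in osteogenic and 533.3 ± 173.3 CPM in untreated adipogenic libraries, a log2 fold change of -1.31 ± 0.37 (adjusted p = 0.0852) that passed without treated library 4 (0.039) and with DESeq2 (0.00726). Gvin1 had a log2 fold change of -3.35 ± 0.98 (adjusted p = 0.0912), which rests on 11 counts in all osteogenic libraries and passed without untreated library 5 (0.0404) and with DESeq2 (0.00378). The other effectors missed the threshold, with -1.48 ± 0.67 for Tgtp1 (adjusted p = 0.231), -1.19 ± 0.61 for Tgtp2 (0.279) and -1.22 ± 0.46 for Ifi47 (0.156).

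IFNγ-treated adipogenic progenitors and osteogenic progenitors lay furthest apart. These groups differ in both lineage and IFNγ, which cannot be told apart in this comparison. Its log2 fold changes follow from those of the other comparisons, where members were higher with IFNγ and lower in osteogenic libraries. All 8 members were higher in the treated libraries without overlap (against 19.7% of all genes tested) and all 8 passed the test as higher (against 9.20%). The log2 fold changes ran from 2.74 to 9.30 with a median of 5.79. They were 2.74 ± 0.39 for Irgm1 (adjusted p = 0.00331), 6.06 ± 0.30 for Irgm2 (2.04e-05) and 6.65 ± 0.34 for Igtp (2.15e-05) among the regulators. Iigp1 averaged 1046 ± 456.5 CPM in treated and 1.653 ± 0.1945 CPM in osteogenic libraries, a log2 fold change of 9.30 ± 0.93 (adjusted p = 0.00061). Tgtp1 differed by 5.52 ± 0.77 (0.00304), Tgtp2 by 3.88 ± 0.67 (0.00709), Ifi47 by 4.34 ± 0.51 (0.00138) and Gvin1 by 6.77 ± 1.07 (0.00508). Without osteogenic library 5, the highest of its group for both genes, Tgtp1 differed by 6.69 and Gvin1 by 8.18. All 8 passed whichever 1 library was left out.

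**Figure D4:**
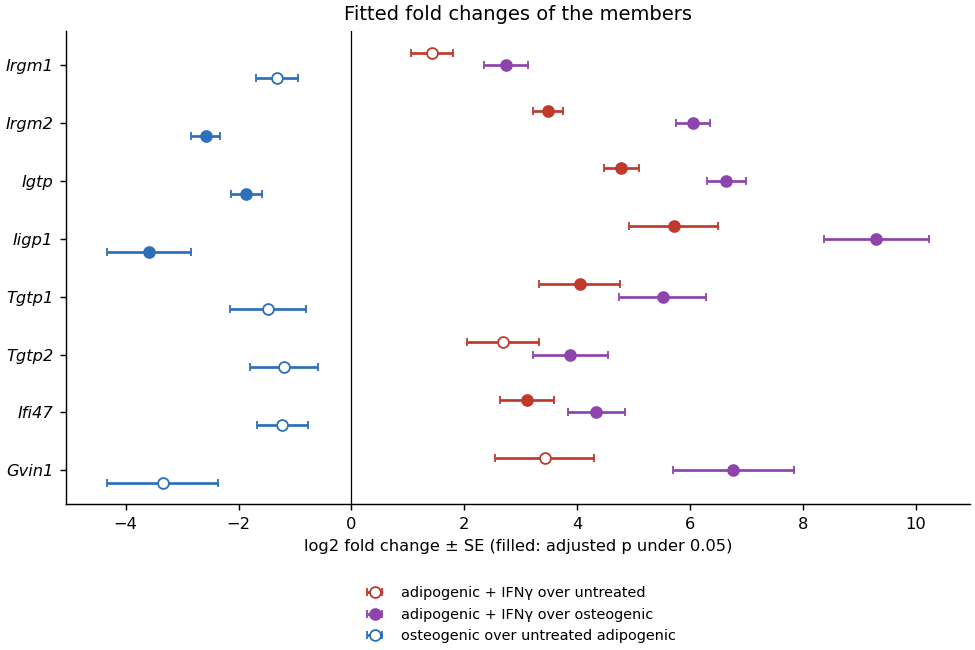
Log2 fold changes with SE of each member for IFNγ-treated over untreated adipogenic (red), IFNγ-treated adipogenic over osteogenic (purple) and osteogenic over untreated adipogenic progenitors (blue), with filled points for an adjusted p under 0.05. Red and purple points lie above 0 and blue ones below 0 for all 8 members, and Irgm1 has the smallest red and purple values.

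The make-up of the family also differed between the groups. The 8 genes together took 2977, 5554 and 6218 CPM in IFNγ-treated, 298.2, 230.7 and 255.3 CPM in osteogenic and 487.8, 728.8 and 912.7 CPM in untreated adipogenic libraries. On the scale of CPM per kilobase of the deposited exonic length, the summed level was 1606 ± 541.3 in treated, 55.44 ± 7.247 in osteogenic and 158.4 ± 47.58 in untreated adipogenic libraries. Igtp made up 42.4% of that sum in treated libraries (range 39.3 to 45.1%), 12.3% in osteogenic (10.8 to 14.7%) and 15.6% in untreated adipogenic ones (14.7 to 16.7%). Irgm1 made up 15.0% (13.0 to 16.3%), 66.7% (62.4 to 72.3%) and 57.8% (50.6 to 68.5%) in the same order of groups, and Iigp1 20.3% (16.8 to 24.4%), 0.96% (0.881 to 1.09%) and 3.95% (0.921 to 5.63%). The treated ranges of these 3 genes did not overlap those of the other groups.

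Without IFNγ, Irgm1 thus led the family, and with it Igtp did by the deposited exonic lengths. In treated libraries the levels per kilobase fell in the order Igtp (673.9), Iigp1 (335.3), Irgm1 (247.2), Irgm2 (171.4), Ifi47 (107), Tgtp2 (39.48), Tgtp1 (30.5) and Gvin1 (1.556). Neighbours overlapped in their library ranges except at the steps below Igtp, Ifi47 and Tgtp1. The osteogenic order was Irgm1 (36.98), Igtp (6.721), Ifi47 (5.271), Tgtp2 (2.683), Irgm2 (2.565), Tgtp1 (0.674), Iigp1 (0.530) and Gvin1 (0.0147), with overlap between Igtp and Ifi47, Tgtp2 and Irgm2, and Tgtp1 and Iigp1. Untreated adipogenic libraries had Irgm1 (91.8), Igtp (24.46), Irgm2 (15.32), Ifi47 (12.33), Iigp1 (6.399), Tgtp2 (6.121), Tgtp1 (1.845) and Gvin1 (0.144), where the 5 ranks from Igtp to Tgtp2 overlapped step by step. These shares depend on the length used: the deposited exonic length of Irgm1 is 5810 bases and its longest coding transcript in GENCODE M21 is 2259. With transcript lengths of that kind, chosen after seeing the data, Irgm1 made up 30.7% in treated, 82.4% in osteogenic and 76.5% in untreated adipogenic libraries and Igtp 33.7%, 5.91% and 8.12% in the same order, so that the lead of Igtp over Irgm1 with IFNγ was small (673.9 against 635.7 CPM per kilobase). It did not hold in every treated library: with these lengths treated library 5 had 699.8 CPM per kilobase of Igtp and 747.2 of Irgm1.

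**Figure D5:**
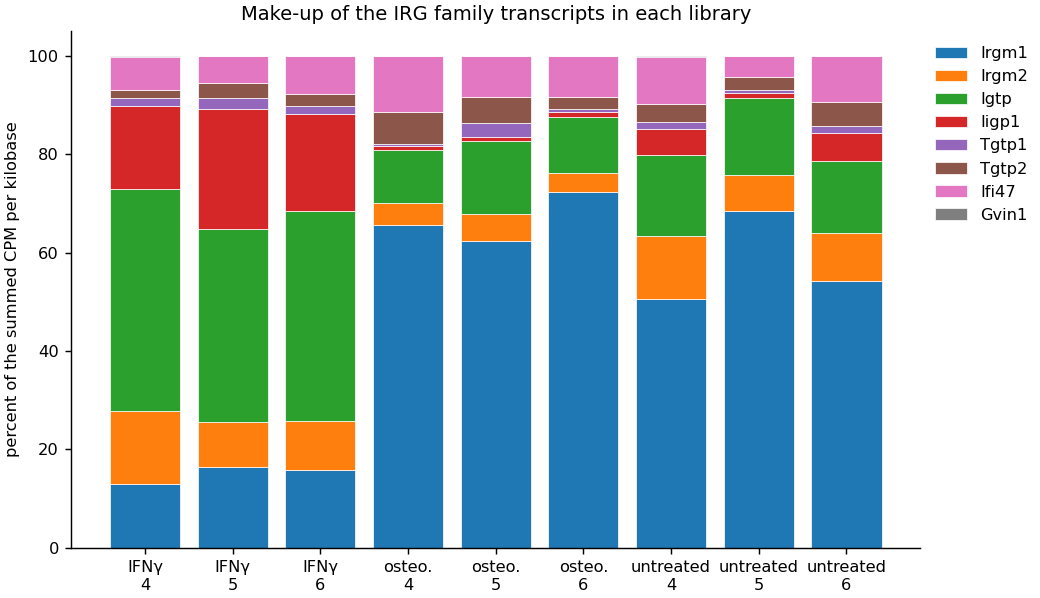
Share of each member in the summed CPM per kilobase of exonic length, in percent, for each of the 9 libraries. Irgm1 fills over 50% of every library without IFNγ and 13.0 to 16.3% of the treated ones, where Igtp and Iigp1 take most of the rest.

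In RefSeq order 6 of the 8 members lie on chromosome 11, while Iigp1 is on chromosome 18 and Gvin1 on chromosome 7. Gm12250, Igtp and Irgm2 sit side by side on chromosome 11, and Irgm1, Tgtp1, Tgtp2 and Ifi47 close together elsewhere on it, with Gm5431, Gm12185 and the 9930111J21Rik genes among those between them. Of 9 related GTPase genes in the table that are no members, 8 were tested. With IFNγ 2 rose, against 2.01% of all genes tested, and none fell. With the replicate block 6 rose, against 8.61% of the genes in that fit. Gm12250 (Irgb10), an effector that acts on bacteria and vacuoles, had 243.9, 431.1 and 465.8 CPM in treated, 0.483, 0.338 and 0.367 CPM in osteogenic and 2.336, 1.991 and 3.018 CPM in untreated adipogenic libraries. Its log2 fold change with IFNγ was 7.28 ± 0.34 (adjusted p = 5.52e-05), above that of any member, and it fell by 2.61 ± 0.33 in osteogenic against untreated adipogenic libraries (adjusted p = 0.00724, and 0.0519 by limma). Gm8995 averaged 31.43 ± 10.66 CPM in treated and 0.786 ± 0.907 CPM in untreated libraries (log2 fold change 5.32 ± 1.01, adjusted p = 0.0364), a call lost in 7 of the 9 fits that left out 1 library (up to 0.115), all but those without untreated library 4 or 5, and in the 6 adipogenic libraries alone (0.0999). With the replicate block it passed (0.00707). Irgq, a divergent relative, averaged 29.81 ± 4.92 CPM in treated and 36.3 ± 6.94 CPM in untreated libraries (log2 fold change -0.28 ± 0.18, adjusted p = 0.552). Gm12185, named for its promoter window alone, had 61.25, 97.7 and 103.3 CPM in treated, 3.293, 4.851 and 3.471 CPM in osteogenic and 3.209, 2.646 and 6.51 CPM in untreated adipogenic libraries. It rose with IFNγ by 4.40 ± 0.41 on the log2 scale (adjusted p = 0.00118), while its osteogenic libraries lay within the untreated range. In IFNγ-treated against osteogenic libraries 5 of the 8 tested relatives were higher, against 9.20% of all genes tested, and none lower. Of these 5, Gm4951 averaged 79.18 ± 32.08 CPM against 0.381 ± 0.203 CPM (log2 fold change 7.65 ± 1.22, adjusted p = 0.00529). That call held whichever 1 library was left out, while against untreated libraries Gm4951 missed the threshold (0.0946). Gm5431 (adjusted p = 0.046) missed the threshold whichever 1 of the 6 libraries was left out, and without untreated library 5 (0.0601).

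Genes that carry the IFNγ signal changed at several steps, from receptor chain and kinase to transcription factors and a feedback inhibitor. Of 11 genes from receptor to feedback inhibitors, 6 were higher and 1 lower with IFNγ, against 2.01% and 0.245% of all genes tested. With the replicate block 9 were higher and 1 lower, against 8.61% and 8.02% of the genes in that fit, so 1 lower gene is near that share. The receptor chain Ifngr1 averaged 61.11 ± 14.22 CPM in treated and 90.33 ± 42.19 CPM in untreated libraries (adjusted p = 0.499). The other chain, Ifngr2, averaged 64.47 ± 16.85 CPM against 128.1 ± 19.36 CPM and fell by 0.99 ± 0.19 on the log2 scale (adjusted p = 0.0398). Of the kinases bound to them, Jak2 rose by 1.40 ± 0.23 (adjusted p = 0.0195) and Jak1 had 0.39 ± 0.14 (0.218, and 0.0497 with the replicate block). The calls of Ifngr2, Jak2 and Irf2 (0.74 ± 0.13, 0.0279) were each lost in 5 of the 6 fits that left out 1 adipogenic library, with adjusted p values up to 0.188, 0.0687 and 0.126. Ifngr2 passed without treated library 5, and Jak2 and Irf2 without treated library 4. Leaving out any 1 osteogenic library also ended the calls of Ifngr2 (up to 0.101) and Irf2 (up to 0.0695). With the replicate block Ifngr2 (0.00585), Jak2 (0.00896) and Irf2 (0.0148) each passed, as they did with DESeq2 and limma. In the 6 adipogenic libraries alone without a block each missed the threshold (0.15, 0.0587 and 0.138).

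The transcription factor Stat2 averaged 766 ± 76.22 CPM in IFNγ-treated, 29.16 ± 3.042 CPM in osteogenic and 149.5 ± 29.52 CPM in untreated adipogenic libraries, with log2 fold changes of 2.36 ± 0.18 with IFNγ (adjusted p = 0.00045) and -2.36 ± 0.18 in osteogenic against untreated adipogenic libraries (0.00104). Irf1, an IRF made early after IFNγ, averaged 790.2 ± 136.5, 41.38 ± 5.126 and 53.58 ± 9.723 CPM in the same groups and rose by 3.88 ± 0.21 with IFNγ (adjusted p = 9.29e-05). Its log2 fold change in osteogenic against untreated adipogenic libraries was -0.37 ± 0.19 (0.28). Irf8 rose with IFNγ by 8.69 ± 0.83 (adjusted p = 0.00141) to 75.19 ± 41.17 CPM, against 0.177 ± 0.153 CPM in untreated libraries, a level of a few counts.

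Irf9, a DNA-binding partner of STAT2, averaged 124.3 ± 27.08 CPM in IFNγ-treated, 19.88 ± 2.883 CPM in osteogenic and 83.65 ± 12.09 CPM in untreated adipogenic libraries. It did not pass with IFNγ (0.57 ± 0.19, adjusted p = 0.209, and 0.0244 with the replicate block) and fell in osteogenic against untreated adipogenic libraries (-2.07 ± 0.20, 0.00223). Usp18, which damps type I interferon signalling, averaged 230.6 ± 96.22, 1.444 ± 0.462 and 85.09 ± 11.28 CPM in the same groups. Its log2 fold change was 1.44 ± 0.31 with IFNγ (adjusted p = 0.0599, and 0.0166 with the replicate block) and -5.87 ± 0.38 in osteogenic against untreated adipogenic libraries (0.000658). Socs1, the inhibitor of the JAK kinases, rose with IFNγ by 4.83 ± 0.46 (adjusted p = 0.00127), and osteogenic libraries averaged 5.304 ± 0.784 CPM against 3.074 ± 0.614 CPM in untreated adipogenic ones (0.78 ± 0.40, 0.28). Of the 11 genes, 3 fell in osteogenic against untreated adipogenic libraries, Stat2, Irf9 and Usp18, against 3.19% of all genes tested, and none rose. Against osteogenic libraries the IFNγ-treated ones had 8 of 11 higher and 1, Ifngr2, lower (-0.76 ± 0.19, 0.0306), against 9.20% and 7.52% of all genes tested. The call of Ifngr2 missed the threshold without treated library 4 or 6, untreated library 6 or any 1 osteogenic library (up to 0.12).

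None of the genes measured from the machinery that marks a vacuole for IRG proteins passed with IFNγ, apart from Trim21. Of 10 genes for the conjugation of LC3 and GABARAP, the ubiquitin-like proteins that mark where IRG and GBP proteins load, 0 passed with IFNγ by edgeR, DESeq2 or limma, and 0 had an unadjusted p under 0.05 by edgeR. The log2 fold changes lay between -0.46 and 0.41. With the replicate block 1 of the 10 fell, Map1lc3a (adjusted p = 0.0181), against 8.02% of all genes in that fit. Map1lc3a averaged 68.9 ± 16.86 CPM in treated and 94.51 ± 23.52 CPM in untreated libraries. In osteogenic against untreated adipogenic libraries Atg7 (-0.96 ± 0.15, adjusted p = 0.0133), Map1lc3b (-0.76 ± 0.12, 0.0133) and Atg12 (-1.22 ± 0.26, 0.0376) fell (3 of 10, against 3.19% of all genes tested), and none rose. Each missed the threshold in some fits that left out 1 library: Atg7 without any 1 osteogenic library (up to 0.0592), Map1lc3b without osteogenic library 4 or 6 (up to 0.0627), and Atg12 without untreated library 4 or 6 or any 1 osteogenic library (up to 0.14), or without treated library 6 (0.0622). Against osteogenic libraries, 3 of the 10 were higher in IFNγ-treated ones (Atg7, Atg12 and Map1lc3b, against 9.20% of all genes) and 1, Map1lc3a, was lower (against 7.52%). Of these calls, Map1lc3a was lost in 6 of the 9 fits that left out 1 library (up to 0.122) and Map1lc3b without osteogenic library 4 or 6 (up to 0.0616), and with the replicate block Atg12 alone passed. Among 7 ubiquitin ligases and adaptors of the vacuole, Trim21 alone passed with IFNγ, as higher, against 2.01% of all genes tested. It averaged 99.7 ± 22.9 CPM in treated, 5.755 ± 1.143 CPM in osteogenic and 17.42 ± 1.929 CPM in untreated adipogenic libraries, with log2 fold changes of 2.52 ± 0.21 with IFNγ (adjusted p = 0.00079) and -1.60 ± 0.21 in osteogenic against untreated adipogenic libraries (0.00797). Against osteogenic libraries Trim21 was also the 1 gene of the 7 that was higher in IFNγ-treated ones (against 9.20% of all genes tested), and none was lower. Traf6, the other ligase on the list, had 0.15 ± 0.18 (0.775) with IFNγ and -0.17 ± 0.18 (0.614) in osteogenic against untreated adipogenic libraries.

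The guanylate-binding proteins, large GTPases that load on vacuoles together with the IRG proteins, were the family nearest in kind. All 9 tested rose with IFNγ, against 2.01% of all genes tested, with a median log2 fold change of 6.86 against 3.45 for the IRG members. The smallest adjusted p values were those of Gbp4 (8.66e-06), Gbp10 (2.53e-05), Gbp3 (8.38e-05) and Gbp7 (0.000106). In osteogenic against untreated adipogenic libraries 5 of 9 fell (against 3.19% of all genes tested), none rose, and the median was -2.18 against -1.67. Of these falls, those of Gbp3 (adjusted p = 0.00102) and Gbp7 (0.00457) passed whichever 1 library was left out. Gbp5, Gbp6 and Gbp9 missed the threshold without untreated library 4 or 6 or any 1 osteogenic library (up to 0.137), and Gbp9 also without any 1 treated library (up to 0.0627). Limma called 2 as lower, as did edgeR on the 6 libraries alone, and the replicate block on those 6 called none. The sums were 5180 to 7730 CPM in IFNγ-treated, 25.0 to 32.4 CPM in osteogenic and 66.8 to 122 CPM in untreated adipogenic libraries. Against osteogenic libraries all 9 were higher in IFNγ-treated ones, against 9.20% of all genes tested. Whether the families differ in response was not tested.

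Across the 9 libraries, the non-member genes whose centred log2 CPM lay nearest to the median pattern of the 8 members were Ly6a (root mean square difference 0.355), Psmb10 (0.411), Ly6c1 (0.437), H2-DMb1 (0.438) and Uba7 (0.45). Ly6a codes for the surface antigen Sca-1, Psmb10 for a subunit of the immunoproteasome and Uba7 for the enzyme that activates the ubiquitin-like protein ISG15. Ly6a averaged 1410 ± 355 CPM in IFNγ-treated, 39.7 ± 13.3 CPM in osteogenic and 99.5 ± 36.3 CPM in untreated adipogenic libraries. Among the members, Irgm2 was nearest to their own median (0.326), followed by Tgtp1 (0.453) and Igtp (0.562). Irgm1 (1.41) and Iigp1 (1.56) were furthest, with the smallest and the largest fold change of IFNγ-treated libraries over either other group. The 9 libraries share the 3 groups, so a gene with like group levels comes out near whatever its role.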

How the data were processed

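Per the submitters' processing notes CASAVA 1.8.0, bedtools 2.11 and mm9 were used, with no step stated. Which aligner and counting tool were used, and whether strand was counted, is not given in the sources used here. The deposited values are raw read counts per Ensembl gene, whole numbers with 1 column per library, made by the authors from 75-base single reads of a directional poly(A) kit, pooled over all lanes per the labels' protocols. The deposited table also holds the exonic length, used for levels per kilobase.

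edgeR 4.0.16 in R 4.3.3 was used. Its filterByExpr, by group, kept 15098 of 24186 genes, and TMM factors scaled the libraries. A robust quasi-likelihood model with a term for group was fitted to all 9 libraries (biological coefficient of variation 0.378). The 3 pairs of groups, which share libraries, were compared with two-sided F tests, Benjamini-Hochberg adjustment over all genes kept and a threshold of 0.05. The SE is the size of the log2 fold change over the square root of F. CPM are counts over the scaled library size. Libraries of 1 group all differed by more than sampling noise. The floor of 3 counts covers counting error only, and reads are not independent molecules. The SD and SE carry the spread between libraries. The fit was tested on simulated data drawn without an effect of library number, so that test does not bear on the pairing.

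The members, gene lists and tests were chosen with earlier results of these data known. All members were named, then from each list up to 4 genes past the threshold, by smallest adjusted p, if their higher group averaged 1 CPM or more, plus Ifngr1, Ifngr2, Jak1, Jak2, Irf1, Irf8, Irf9 and Socs1. Of the genes chosen for IFNγ signalling, 1 is not reported here. Genes named beside these (Irgq, Irf2, Map1lc3a, Traf6, Gbp9, Gm4070 and Gm5431) and the marker genes were chosen after their values were seen, for a contrast, an unstable call, a shared sequence or the cells present, and Gm12185 was named for its promoter window. Likeness is the root mean square difference, over the 9 libraries, between a gene's centred log2 CPM (prior count 2) and the members' median, with predicted genes left out. F830016B08Rik, 9930111J21Rik, Gbp11, Emr1, Spi1 and Ifng were not analysed here.

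The number check took each library's deviation from its group mean. Over genes, treated and untreated adipogenic deviations correlated at 0.778, 0.769 and 0.779 where the numbers matched and at -0.461 to -0.279 where they did not. The negative values follow from the positive ones, since deviations cancel out within a group, and are no separate evidence. By the matched values the numbers were taken to pair these libraries, a reading from the data and not from the labels. Osteogenic libraries gave -0.0546 to 0.0552 with libraries of the same number and were not paired. Alternatives were RLE and upper-quartile scaling, no filter beyond 1 count, DESeq2 1.42.0, limma 3.58.1, the 6 libraries of a comparison alone, replicate blocks, summed near-identical genes and leaving out each library. Sequences are RefSeq promoter windows. Shared 75-base stretches were counted over GENCODE M21 transcripts.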

Additional observations from a re-analysis of the deposited data

How the results depend on the processing

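No fold change of a member changed direction under any alternative run. With IFNγ against untreated, 341 genes and 5 members passed. DESeq2 gave 1068 genes and 8 members, the 6 libraries alone 178 and 3, and the replicate block on those 6 libraries 2446 and 8. Leaving out 1 library gave 194 to 278 genes and 3 to 7 members. In osteogenic against untreated adipogenic libraries 780 genes and 3 members passed. DESeq2 gave 2226 and 5, the replicate block over all 9 libraries 1244 genes, the block on the 6 libraries 23 genes and 0 members, and leaving out 1 library 159 to 771 genes and 1 to 4 members. In IFNγ-treated against osteogenic libraries 2525 genes and 8 members passed. DESeq2 gave 3830 genes, and leaving out 1 library 1312 to 2474, with 8 members each time, and the replicate block on the 6 libraries 1257 genes and 7 members. The calls lost under that block were Tgtp2 in the last comparison (adjusted p = 0.0585) and all 3 members in the one before. Osteogenic libraries were not paired with the others by number, and why these calls were lost was not tested. Among IFNγ-treated and untreated libraries the block ended no call of a member. Fewer libraries leave fewer degrees of freedom, and the cause of the other shifts was not tested.

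Each member name had 1 identifier, so summing identifiers gave no other value. Scaling moved the median log2 fold change of all genes by less than 0.1. Depth limits Gvin1 in osteogenic libraries, and shared sequence limits Tgtp1, Tgtp2 and Gvin1.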
